A study of Mus musculus with 2 samples.

Results

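The circRNA probes described here are the 82 that gave at least 2-fold more signal with RNA from multipotent progenitors (MPP) than with RNA from long-term haematopoietic stem cells (LT-HSC), out of the 1797 circRNA probes of a mouse array. They were chosen by the same difference that is described below, so their direction and the smallest size of their differences follow from the choice and are not results. A probe had to exceed the 95th percentile of the 40 probes named as negatives on both arrays, which 413 did. Each array was then scaled to its own 75th percentile over all circRNA probes, and the probes with LT-HSC minus MPP at or below -1 on the log2 scale were taken. The 82 are 4.56% of all circRNA probes, and the background share of this choice among the 413 is 19.9%.

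Cells came from bone marrow of WT (wild-type) C57/BL6 mice, 8 weeks old, and were sorted into both populations; no treatment is named. The sources used here give neither the sort markers nor the numbers of mice and cells. RNA was digested with RNase R, labelled with Cy3 from random primers, and hybridised to 1 array per population, so the design holds 1 LT-HSC sample and 1 MPP sample. No replicate check and no p-value is possible, and every SD below is over the spots of a probe on one array, which is technical. Scanning took place on a different day for each array, so scan day and population cannot be told apart. An equal mass of labelled cRNA, 1 µg, went onto each array, so the values are relative amounts, and a larger share of cells with a circRNA and more of it per cell cannot be told apart.

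LT-HSC are the rarely dividing, self-renewing cells from which all blood cells descend, and MPP are their progeny, which still give rise to all blood lineages but no longer renew themselves for long. A circRNA forms when the spliceosome joins a downstream splice donor to an upstream acceptor of the same transcript, which leaves a closed loop without free ends. Such loops resist exonucleases such as RNase R and tend to be stable in cells. The array reports each circRNA through a probe with an identifier of the manufacturer. The files and the gene table used here do not pair these identifiers with a circRNA, a host gene or a sequence. Only the 2 probes with the largest differences are therefore given by identifier, and the others by their rank in the difference. None of the 56 stem cell, progenitor, cell cycle and lineage marker genes listed for this work is among the 44 messenger or non-coding transcript probes with a gene symbol, so the labelled cell types could not be checked against markers.

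The MPP-higher probes ran from 2.01-fold to 53.0-fold, with a median of 4.08-fold and quartiles of 2.52-fold and 9.37-fold. Of the 82 probes 42 reached 4-fold, 27 reached 8-fold, 11 reached 16-fold and 4 reached 32-fold. Against the 413 probes above the negatives these are background shares of 10.2% for 4-fold, 6.54% for 8-fold and 2.66% for 16-fold, and because the choice used this contrast nothing is read from them. The median difference of the 82 was -2.03 (LT-HSC minus MPP, log2), beside 0.20 over all 413. In the opposite direction 98 probes (23.7%) were past 2-fold and 14 (3.39%) past 4-fold, with a median of 2.61-fold and a highest value of 7.92-fold, so 0 of the 413 reached 8-fold towards LT-HSC. This difference between the ends of the distribution has no test, since both ends rest on the same pair of arrays.

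Probe ASCRMP001481 had the largest difference. Its signal, as processed by the scanner software, was 290.1 with LT-HSC RNA and 10054 with MPP RNA, which after scaling is a difference of -5.73 or 53.0-fold, and its SD over spots was 0.04 in either case. The 7 LT-HSC spots ran from 277 to 301, and the 6 MPP spots in use ran from 9556 to 10433. A further MPP spot was marked as an outlier and left out, and at 7885 it was still far above every LT-HSC spot.

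Probe ASCRMP001663 came next, with 122 in LT-HSC and 3834 in MPP, a difference of -5.58 or 47.9-fold. Its 7 LT-HSC spots ran from 114 to 131 and its 7 MPP spots from 3557 to 4379, so the spots did not overlap. The LT-HSC mean lies just above 121, the negative-named level that a probe had to exceed there.

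The other 9 probes past 16-fold started from LT-HSC signals between 121 and 644. The probe ranked 3 gave 448 in LT-HSC and 10273 in MPP, or 35.0-fold. The probe ranked 5 gave 601 and 11985, or 30.5-fold, and the probe ranked 9 gave 644 and 8973, or 21.3-fold. These 3 gave over 2 times the negative-named level in both populations, as did ranks 1, 7 and 8. Ranks 7 and 8 gave 334 and 333 in LT-HSC and 5417 and 5324 in MPP, or 24.8-fold and 24.4-fold. The probe ranked 4 gave 129 and 2784, or 32.9-fold, with the widest spread of LT-HSC spots among the 82 (SD 0.18 on the log2 scale). The probe ranked 6 gave 121.2 and 2001, or 25.2-fold, and passed the LT-HSC level of 121.1 by the narrowest margin of all. Ranks 10 and 11, at 18.7-fold and 18.0-fold, had LT-HSC signals of 223 and 193 against MPP signals of 2726 and 2265. Over the 11 probes past 16-fold, the gap between the lowest MPP spot and the highest LT-HSC spot ran from 3.96 to 5.60 on the log2 scale, so even their closest spots were over 8-fold apart.

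The 16 probes between 8-fold and 16-fold (ranks 12 to 27) had LT-HSC signals from 124 to 2069 and MPP signals from 821 to 19988. The probe ranked 12 gave 1942 in LT-HSC and 19988 in MPP, or 15.7-fold. The probe ranked 19 gave 2069 and 15352, or 11.3-fold, and the probe ranked 24 gave 1345 and 7761, or 8.81-fold. All 3 gave over 8 times the negative-named level of 121 in LT-HSC. Ranks 13, 16, 21, 23 and 25 lay between 608 and 905 in LT-HSC and between 3983 and 6526 in MPP, with folds from 8.80 to 14.2. Ranks 20 and 22 started from 338 and 340 and reached 2340 and 2055 in MPP, or 10.6-fold and 9.23-fold. The remaining 6, ranked 14, 15, 17, 18, 26 and 27, lay at less than 2 times the negative-named level in LT-HSC, and the dimmest of them, ranked 14, gave 124 and 1142, or 14.1-fold. Among the 16 the probe ranked 17 was the least exact, with an SD of the difference of 0.20 on the log2 scale, against a median of 0.06.

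Between 4-fold and 8-fold lay 15 probes (ranks 28 to 42), with LT-HSC signals from 135 to 5197 and MPP signals from 443 to 14102. The probe ranked 34 gave 3276 in LT-HSC and 12132 in MPP, or 5.66-fold, and the probe ranked 41 gave 5197 and 14102, or 4.15-fold. Ranks 29 and 30 gave 1097 and 961 in LT-HSC and 5415 and 4740 in MPP, or 7.54-fold and 7.53-fold. The probe ranked 37, with 135.5 and 443, or 5.00-fold, had the largest SD of the difference among the 82 (0.26), which came from its MPP spots. Even so its lowest MPP spot was 2.01 above its highest LT-HSC spot on the log2 scale.

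The remaining 40 probes lay between 2-fold and 4-fold (ranks 43 to 82), with LT-HSC signals from 123 to 16456 and MPP signals from 178 to 32033. The probe ranked 52 gave 16456 in LT-HSC and 32033 in MPP, a difference of -1.57 or 2.97-fold, and it has the highest signal of the circRNA probes in either population. The probe just inside the threshold gave 707 and 928, or 2.01-fold, and the probe just outside gave 386 and 501, or 1.98-fold. Within 0.1 of the threshold on the log2 scale there were 4 probes inside and 7 outside.

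The size of the difference showed no steady order with the LT-HSC signal. The 25 probes with an LT-HSC signal under 200 had a median of 4.99-fold, the 30 from 200 to 500 a median of 3.22-fold, the 18 from 500 to 1000 a median of 5.68-fold, and the 9 above 1000 a median of 5.66-fold. Probes past 8-fold occurred in each of these ranges, with 9, 8, 7 and 3 in that order. In LT-HSC 30 of the 82 lay at less than 2 times the negative-named level, and 11 of the 27 probes past 8-fold were among them. The other 52 probes had folds from 2.01 to 53.0, with a median of 4.08-fold. In MPP no probe was that close, and the lowest signal was 3.29 times the level there (54.3). The arrays differed in general brightness. The 75th percentile was 7.08 for LT-HSC and 6.47 for MPP (log2), and scaling therefore multiplied every MPP to LT-HSC ratio by 1.53. Before scaling all 82 were already brighter in MPP, 51 of them by 2-fold or more.

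Spot noise was small beside these differences. All MPP spots lay above all LT-HSC spots for 82 of 82 probes (37.8% of the 413 show this order), and for 73 of them (17.7%) the lowest MPP spot was at least 2-fold above the highest LT-HSC spot. The median SD over spots was 0.04 for LT-HSC and 0.05 for MPP, beside 0.04 and 0.06 for the other probes above the negatives. The SD of a difference ran from 0.03 to 0.26, with a median of 0.07 on the log2 scale. The probes were chosen past 2-fold from these same spots, so a spread this small left little room for overlap. The order of the spots thus largely follows from the choice and is not a result. On each array all 574 spots of these probes were well above background by the scanner flag and 0 were saturated. Outlier spots made up 1.92% of these spots for LT-HSC and 2.26% for MPP, beside 2.20% and 2.50% for the other probes above the negatives. Spots of one probe are repeats of one hybridisation, so none of this covers error between animals, RNA preparations or arrays.

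The 7 spots of a probe are scattered, with a median span of 147 of the 192 rows. From spots in the upper 96 rows alone 81 of the 82 were past 2-fold (19.7% of all probes tested that way), and from the lower rows alone 80 of the 81 with such spots were (20%). Of the 81 with spots in both parts, 79 were past 2-fold in each, and the difference changed between parts by a median of 0.04 on the log2 scale and by at most 0.30. These are the spots that the choice used, so the counts past 2-fold largely follow from it. The probes were also spread over the identifier numbers. Of the probes above the negatives, 18.7% of those numbered 1 to 599, 22.7% of those numbered 600 to 1198 and 18.3% of those numbered 1199 to 1797 were MPP-higher. Where a probe's next or previous number was also above the negatives, such a neighbour was MPP-higher for 4 of 35 MPP-higher probes (11.4%) and for 34 of 145 others (23.4%). Of all 413 probes above the negatives 19.9% were MPP-higher. The first share rests on 4 probes and was not tested, so nothing is read from it.

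Other probe classes show how large such differences were elsewhere on the arrays. Of the 50 messenger or non-coding transcript probes 23 passed the same negative-named level in both populations. Among the 23, 2 (8.7%) were past 2-fold towards MPP, the larger by 2.54-fold, against 11 (47.8%) towards LT-HSC, and their median difference was 0.97 towards LT-HSC. The 9 negative-named probes well above background in both populations ran from -0.67 to 1.95, with a median of 0.79; 4 of them were past 2-fold towards LT-HSC and 0 towards MPP. These classes are small and were not tested against the circRNA probes. The RNA had been digested with RNase R, which linear transcripts do not resist as circRNAs do. The transcript probes therefore read what the digestion left in each sample, and their differences need not be those of the transcripts in the cells. A negative-named probe outside these 9 had a difference of -5.35 towards MPP, with 259.7 in MPP and 9.76 in LT-HSC, where it was under the level that the circRNA probes had to exceed. The next brightest of its class in MPP gave 60.8. A probe named as a negative thus had a log2 difference as large as those of the leading circRNA probes. Its size rests on a dim LT-HSC value, where a share of 0.5 of its spots was well above background. The 11 circRNA probes past 16-fold passed the level in both populations, with MPP signals from 2001 to 11985. The part of signal like that of the negative-named probe in their differences was not tested.

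A stricter level left most of the probes in place. It changes which probes are tested and not their values, so those that remain are past 2-fold by construction. With the level raised to the 99th percentile of negatives 59 of the 82 remained (24.1% of the probes left were past 2-fold towards MPP), 19 of them past 8-fold. Above the brightest negative-named probe of each array 56 remained (32.9%), with 18 past 8-fold. These probes gave 205.8 in LT-HSC and 259.7 in MPP, against levels of 121 and 54.3, so the stricter level rose more in MPP. A level raised more in MPP favours probes bright there by construction. Past 2-fold towards LT-HSC, 45 probes were left at the 99th percentile and 23 here, beside 98 before. With the 90th percentile the count was 99 in place of 82 (19.4%). The scanner flag for signal well above background, without a negative-named level, gave 219 (20.9%), and no filter gave 409 (22.8%). The requirement of signal in both populations left out probes that were low in LT-HSC, and a level passed in either population gave 189 (29.9%). Another 151 circRNA probes were above the level in MPP only and 68 in LT-HSC only, and the direction of both sets follows from that choice. With the dim side set at its level, 47 of the 151 were at least 2-fold and 16 at least 8-fold above it, the largest by at least 133-fold. Of the 68 in LT-HSC only, 39 were at least 2-fold and 0 at least 8-fold above it, the largest by at least 7.58-fold.

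Since the 82 were chosen past 2-fold, and many settings reuse the same spots or shift all probes alike, a kept direction is no sign of stability, and only the sizes are described. Over 15 settings that recompute the values, 50 of the 82 probes were past 2-fold towards MPP in every setting that held them, among them all 27 past 8-fold, and 14 of the 27 were past 8-fold in each. The 50 are ranks 1 to 51 without rank 41. In brackets beside the next counts stands the share of all probes tested that were past 2-fold towards MPP. Under quantile normalization 67 of the 82 were (16.2%), with the percentile taken over the 413 probes 62 (15%), and without scaling 51 (12.3%). Normexp, a model-based background correction, kept 63, of which 62 also passed its negative-named level (15%), and spot median less local background kept 75 (17.9%). Median centring kept all 82 (21.3%) and a lowess correction 79 (20.3%). Choices about spots mattered little, with 82 when outlier spots were kept (20.1%), 82 for the median over spots (19.7%), 82 for odd-numbered spots (20%), 80 for even-numbered spots (19.5%) and 81 for the background-subtracted signal before detrending (19.9%).

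In the authors' deposited table, which holds 81 of the 82, 66 (16.5%) were past 2-fold towards MPP, with a median difference of -1.63 and a largest of -4.87. The bright probes ranked 41 and 52 fell under 2-fold there, at -0.89 and 0, and under quantile normalization, at -0.93 and 0. A difference of 0 is what quantile normalization gives by construction to a probe that is the brightest on both arrays. Of the 2-fold calls in both directions among the 413, 45.6% were towards MPP, beside 34.2% under quantile normalization, 31.5% with the percentile over the 413 probes and 22.7% without scaling. These settings moved the median of the 413 from 0.20 to 0.40, 0.51 and 0.81. Past 8-fold, the counts over the 15 settings ran from 15 to 30 towards MPP and from 0 to 4 towards LT-HSC.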

How the data were processed

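Per the file headers, spot intensities come from Agilent Feature Extraction 11.0.1.1 as run by the authors (single-colour protocol, array design on mm9). The deposited series table holds log2 values, and the sources used here do not name its normalization. Its columns followed the log2 of spot median less local background, with Pearson r 1.00 for both and slopes of 0.997 for LT-HSC and 0.952 for MPP. Their medians over the 1136 circRNA probes held were 6.49 for LT-HSC and 6.54 for MPP, which does not settle how they were normalized. Spots flagged as non-uniform or population outliers were left out, and log2 processed signals were averaged per probe. The thresholds were the 95th percentile of negative-named probes, the 75th percentile for scaling, and 2-fold.

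The probes and lists were chosen with earlier results of these data known. Identifiers are printed for the 2 largest differences without spot overlap. Alternatives used limma 3.58.1 (R 4.3.3) for normexp, offset 50, on spot medians, and statsmodels 0.14.6 for lowess, span 0.4. Other steps ran in Python 3.11.15 with numpy 2.4.6 and pandas 2.3.3. The rule was run on simulated probes with planted differences and signals far above the simulated negatives. That run therefore does not cover probes near the negative-named level. A single array per group allows no test and limits precision. Symbols came from the RefSeq table of GRCm38.p6; no probe sequence was used.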

Additional observations from a re-analysis of the deposited data

Results flagged for a closer look

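Of the 14 probes named as circRNA controls, whose targets the sources used here do not name, some passed the negative-named level in a single population, in both directions. In each direction 2 probes were above the negative-named level and past 2-fold in the brighter population, and 0 of them passed the level in the other, so their directions follow from the choice. AS_circRNA_control011 gave 206 in MPP and 2.72 in LT-HSC, and AS_circRNA_control003 gave 55.7 and 11.2, close to the MPP level of 54.3. AS_circRNA_control006 gave 252 in LT-HSC and 40.6 in MPP, and AS_circRNA_control013 gave 230.2 and 40.2. Only AS_circRNA_control009 passed the level in both populations, with 386 in LT-HSC and 145 in MPP, and it was not past 2-fold. At any signal 3 of the 14 were past 2-fold towards MPP and 4 towards LT-HSC. They were singled out because they lie outside the circRNA probes compared, and nothing further was tested on them.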

How the results depend on the processing

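No paired analysis was possible because there is 1 sample in each group; likewise no replicate was left out. The signal before detrending and the upper and lower rows of the array were chosen after seeing the data. Of 101 alternative summary values, 72 stayed within 1.5 times the count or within the spot SD of the median, and 0 reversed, which the choice of the probes largely fixes. The median difference of the 82 probes was -1.58 with quantiles, -2.12 with median centring, -1.72 with the percentile over probes above the negatives, -1.95 with lowess, -1.42 without scaling, -1.73 with normexp, -1.92 with spot median less local background and -1.63 in the authors' deposited values. Scalings by a constant move every probe alike by construction; other causes were not tested. Without scaling 51 probes passed 2-fold, 15 passed 8-fold and 7 passed 16-fold; quantiles gave 16 and 6 at 8-fold and 16-fold, and the deposited values gave 17 and 6. A 4-fold threshold left 42. More probes pass by construction with a looser filter. At 2-fold, 4-fold, 8-fold and 16-fold the counts were 219, 98, 61 and 28 with the scanner flag alone, 409, 187, 100 and 48 with no filter, and 189, 111, 78 and 43 above the negatives in at least one population. Above the brightest negative-named probe 7 passed 16-fold. All 30 alternative values of ASCRMP001481 and ASCRMP001663 were past 2-fold, from -4.86 to -5.82 and from -4.73 to -5.67; both were picked for large differences on these arrays.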
